A study of Mus musculus with 4 samples.

Results

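Cytokine transcripts are kept short-lived by a small set of proteins that bind their 3′ untranslated regions (UTRs), and the 10 genes described here encode those proteins and their adaptors. They are the AU-rich element binding proteins Zfp36, Zfp36l1 and Zfp36l2, the Regnase ribonucleases Zc3h12a, Zc3h12c and Zc3h12d, the Roquin proteins Rc3h1 and Rc3h2, and the adaptors Btg1 and Btg2. Members were taken by gene name, and all 10 were found among the 38697 genes of the authors' deposited table. Each of them is among the 19193 genes to which that table gives an adjusted p.

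The cells were group 2 innate lymphoid cells (ILC2s), tissue lymphocytes that secrete type 2 cytokines, sorted from lungs of C57BL/6 mice that had received bleomycin, a drug that injures the lung. The wild-type (WT) group has the genotype R5/+ and the knockout (KO) group R5/+Nrp1f/f, so both carry 1 R5 allele and both were given bleomycin. R5 is an Il5 reporter allele that also makes Cre, so Nrp1, the neuropilin-1 gene, is deleted in cells that have expressed Il5. Each genotype has 2 libraries, and every library is a pool of 3 to 4 mice, so error terms measure the spread between pools. The deposited table compares the genotypes, and its columns per library were assigned to no sample, so levels below are means over the 4 libraries and no value is given per library. Positive log2 fold changes mean higher in KO throughout. The table does not state its numerator. Under the reading used, Nrp1 is lower in the R5/+Nrp1f/f group (-1.18 ± 0.21 in the authors' deposited table, adjusted p = 1.27e-04), whereas the opposite reading would put it higher there.

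Zfp36, also called tristetraprolin, and its paralogs grip AU-rich stretches with a pair of zinc fingers and bring in the CCR4-NOT complex, which shortens the poly(A) tail. Roquins recognise small stem-loops and also recruit CCR4-NOT, while Regnase-1, the product of Zc3h12a, cuts stem-loops itself. BTG proteins bind the CAF1 deadenylase of CCR4-NOT and are known for keeping resting lymphocytes quiescent. In lymphocytes and myeloid cells these proteins restrain Tnf, Csf2, interleukin and costimulator transcripts, and several also act on their own messages or on each other's.

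The binding sites make this concrete. The search was for the nonamer TTATTTATT, the core of a class of AU-rich elements, written as DNA on the sense strand, with overlapping matches counted, in the longest annotated 3′ UTR of each gene (GENCODE M21, mm10). The first 2 lines below show the tandem sites of classic target messages and the next 5 lines show the single site found in members, each as 30 bases with matches to the nonamer in capitals.
Tnf: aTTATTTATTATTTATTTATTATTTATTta
Csf2: atatTTATTTATTTATTTATTTATTtttgc
Zfp36: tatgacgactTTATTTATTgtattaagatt
Zfp36l1: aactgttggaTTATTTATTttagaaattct
Zfp36l2: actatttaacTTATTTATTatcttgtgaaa
Rc3h1: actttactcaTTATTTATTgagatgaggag
Rc3h2: caaagacattTTATTTATTttactctgtaa

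The windows of Tnf (chr17:35199679-35199708, minus strand) and Csf2 (chr11:54247322-54247351, minus strand) each hold 4 overlapping nonamers. The member windows lie at chr7:28376950-28376979 (Zfp36, minus strand), chr12:80108166-80108195 (Zfp36l1, minus), chr17:84184913-84184942 (Zfp36l2, minus), chr1:160970043-160970072 (Rc3h1, plus) and chr2:37373286-37373315 (Rc3h2, minus). So 5 of the 10 members, all of the Zfp36 family and both Roquins, carry the nonamer in their own 3′ UTR, each at 1 place. The Regnases and BTG genes have no match. Of the 15228 tested genes with an annotated 3′ UTR, 7.99% hold it.

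Longer UTRs hold more matches, so each share is set beside UTRs within 10% of the same length. The Zfp36 UTR is 774 bases long, and 4.99% of tested UTRs of like length hold the nonamer. For Zfp36l1 (1835 bases) and Zfp36l2 (1822 bases) the shares are 9.68% and 9.83%. The Roquin UTRs are much longer, 7181 bases for Rc3h1 and 5331 for Rc3h2, where 24.2% and 24.6% of like UTRs hold a match. A looser measure, the pentamer ATTTA per kilobase, was above the median of all tested genes (1.30) in 9 of 10 members, the exception being Zc3h12d at 0.859. These are matches of letters and do not show that a protein binds there.

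Roquins bind a different element, and the one of Tnf is shown because it is the textbook case. The loop with the stem bases on either side of it, TTCTGTGAA, is in capitals, and the 30 bases shown lie at chr17:35199577-35199606 on the minus strand, downstream of the AU-rich cluster.
Tnf stem-loop: cagacatgttTTCTGTGAAaacggagctga

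That exact stretch of stem and loop was found in the 3′ UTRs of 2.73% of tested genes, searched on the sense strand. Among members it occurs at 2 places in Rc3h1 and 1 in Rc3h2 and in no other. Of UTRs as long as theirs, 15.3% and 7.06% hold it.

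Before the genotypes are compared, the level of each member shows which of these messages the libraries hold. Transcripts of other cell types are also present in them (described below), so a level is not assigned to ILC2s alone. Levels were put on a common scale as normalized count per kilobase of exonic length (baseMean, the mean normalized count over libraries in the authors' deposited table, divided by GENCODE length). Zfp36 was by far the most abundant member at 11525 per kb, above 99.8% of tested genes. Btg1 (3859 per kb) and Btg2 (3333 per kb) followed, and Zfp36l1 stood at 2687 per kb. Zfp36l2 was lower, at 955 per kb, so the 3 paralogs span more than a factor of 10. All of these lie above 96.7% of tested genes.

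Among the ribonucleases, Zc3h12a, which encodes Regnase-1, was at 685 per kb and above 95.4% of tested genes. Zc3h12c reached 146 per kb and Zc3h12d only 11.9 per kb, below the median of 25.7 per kb over tested genes. The Roquins were modest on this scale, with Rc3h1 at 70.8 and Rc3h2 at 35.4 per kb. That depends on the length used, all annotated exons joined, which is 11308 bases for Rc3h1 and 19624 for Rc3h2. From the top, they rank 3076 and 3482 by baseMean but 6144 and 8504 per kb. The order of neighbours such as Btg1 and Btg2 carries no error here, since the spread between libraries was not used.

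**Figure D1:**
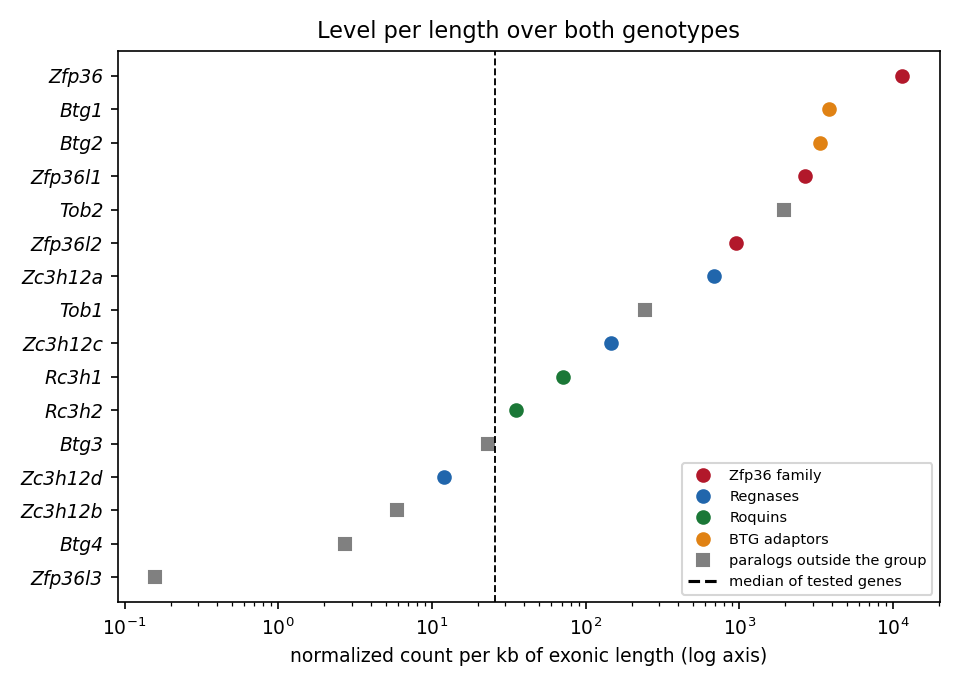
Mean normalized count per kilobase of exonic length over the 4 libraries (log axis) for the 10 decay regulators, coloured by family, and 6 paralogs outside the group (grey squares); the dashed line is the median of tested genes, 25.7 per kb. Zfp36 stands at the top at 11525 per kb, and Zc3h12d at 11.9 is the only member below the line.

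Paralogs outside the group were fixed as a separate list. Tob2, a BTG/TOB protein that also binds CAF1, was abundant at 1955 per kb, between Zfp36l1 and Zfp36l2, and Tob1 stood at 243 per kb. Btg3 (23.3 per kb), Zc3h12b (5.93) and Btg4 (2.71) were low. Zfp36l3, a rodent paralog known from placenta, was at 0.158 per kb and has no adjusted p.

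In the authors' deposited table none of the 10 regulators passed the test between genotypes (adjusted p under 0.05), in either direction. At an unadjusted p under 0.05 the count was also 0, higher or lower. Over all tested genes 0.453% passed as higher in KO and 0.099% as lower, and at the unadjusted threshold 9.62% and 3.95%. At these shares, 0 of 10 is no result about the members. The median log2 fold change of the members was 0.01, against 0.08 over all tested genes. Their log2 values ran from -0.29 to 0.25, with 6 positive and 4 negative.

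In the Zfp36 family the deposited values of the paralogs differed in sign, and none passed. Against the running median described below, Zfp36 stood at 0.50, Zfp36l1 at -0.03 and Zfp36l2 at 0.12. Zfp36 had a log2 fold change of 0.25 ± 0.14 (SE) in the authors' deposited table, the highest of the members, with an adjusted p of 0.422. Its 95% interval runs from -0.02 to 0.52, or 0.985-fold to 1.43-fold. If the genotypes have equal weight in baseMean, these values imply a mean normalized count of 36562 in WT and 43418 in KO. Zfp36l1 stood at -0.29 ± 0.16 in the authors' deposited table (adjusted p = 0.426), the lowest of the members, with implied means of 8844 in WT and 7223 in KO. Its interval, -0.61 to 0.03, overlaps that of Zfp36 only between -0.02 and 0.03. The difference between them was not tested, because 2 genes of the same libraries have related errors. Zfp36l2, whose loss with Zfp36l1 is known to disturb lymphocyte development, stood at -0.15 ± 0.24 in the authors' deposited table (adjusted p = 0.842).

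Neither kit used is described as marking strand, so reads of overlapping genes on opposite strands cannot be told apart. Zfp36l1 shares 55.9% of its exonic bases with the lincRNA Gm26669 on the other strand, which the authors' deposited table lists at a baseMean of 24.4 against 8033 for Zfp36l1. Zfp36 and Zfp36l2 share 3.60% and 2.97% of theirs with antisense models, and Zc3h12c 1.71% with a miRNA. The remaining members share no exonic base with another annotated gene.

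Of the Regnases, Zc3h12a was listed at 0.17 ± 0.18 in the authors' deposited table (adjusted p = 0.724), with an interval of 0.884-fold to 1.43-fold. In the authors' deposited table Zc3h12c, a paralog studied mainly in macrophages and dendritic cells, had a value of 0.00084 ± 0.21, an adjusted p of 0.999 and an interval of 0.747-fold to 1.34-fold. Zc3h12d, at a baseMean of 48.8, gave -0.20 ± 0.74 in the authors' deposited table (adjusted p = 0.938), and its interval from 0.319-fold to 2.36-fold leaves large changes in either direction possible. The error of Zc3h12d is the largest of the members.

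Both Roquins had log2 values within 0.06 of 0. In the authors' deposited table Rc3h1, whose sanroque allele causes lupus-like disease in mice, stood at 0.02 ± 0.22 (adjusted p = 0.987). Its partly redundant paralog Rc3h2 was at -0.06 ± 0.23 in the same authors' deposited table (adjusted p = 0.946). Their intervals, 0.746-fold to 1.37-fold and 0.701-fold to 1.32-fold, nearly coincide.

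The BTG adaptors both had positive values. Btg2, a p53-inducible gene that also responds quickly to growth signals, was at 0.22 ± 0.16 in the authors' deposited table (adjusted p = 0.577), with implied means of 8458 in WT and 9825 in KO. Btg1, which is high in resting lymphocytes, was at 0.11 ± 0.14 in the authors' deposited table (adjusted p = 0.782), with implied means of 19578 and 21139. Tob2 had a negative value, -0.11 ± 0.14 (adjusted p = 0.779), and Tob1 stood at 0.34 ± 0.27 (0.620), both from the authors' deposited table. Set against genes of like abundance (the running median described below), Tob2 lay 0.15 above, on the same side as Btg1 (0.36) and Btg2 (0.48). Neither Tob gene passed, nor did Btg3 (0.11 ± 0.55, adjusted p = 0.959), Zc3h12b (0.74 ± 0.78, 0.728) or Btg4 (3.79 ± 2.28, 0.468) in the authors' deposited table.

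What the comparison could have called depends on each gene's error. The largest p that passed in the authors' deposited table was 2.73e-04, which corresponds to a change of 3.64 standard errors. For Zfp36 a change of 1.41-fold would have reached it, for Btg1 1.43-fold, for Btg2 1.49-fold and for Zfp36l1 1.51-fold. Zc3h12a would have needed 1.56-fold, Zc3h12c, Rc3h1, Rc3h2 and Zfp36l2 between 1.72-fold and 1.83-fold, and Zc3h12d 6.41-fold. These cut-offs apply to the estimated change, given each gene's error and the calls made here. They are not limits on the true change that could be detected.

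**Figure D2:**
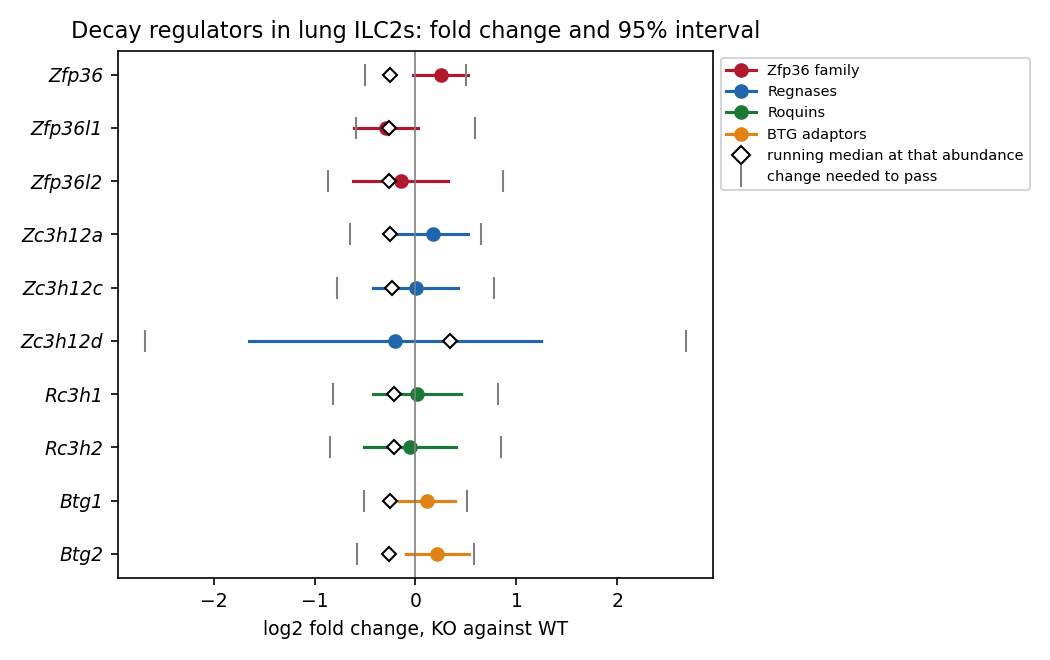
Log2 fold change of KO against WT for each decay regulator (filled circles, coloured by family) with its 95% interval, from the authors' deposited values; open diamonds mark the running median of genes of like abundance and grey ticks the change needed to pass. Every interval includes 0, from Zfp36 (0.25) to Zfp36l1 (-0.29), and in 8 of 10 members the circle lies to the right of the diamond.

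Values near 0 sit differently among genes of different abundance in these data. Of genes at or above a baseMean of 1000 there were 2480, whose median log2 fold change was -0.25, and 7.10% of them were positive. Of the 7 members at that abundance 5 were positive: Zfp36, Btg2, Btg1, Zc3h12a and Zc3h12c. Their values were reached or exceeded by few abundant genes, 2.14% for Zfp36, 2.50% for Btg2, 2.90% for Zc3h12a, 3.63% for Btg1 and 7.10% for Zc3h12c. Zfp36l2 (23.8%) and Zfp36l1 (61.7%) lay nearer the middle.

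Against a running median over 500 genes ranked by baseMean, 8 of 10 members lay above it, and the median over all 10 was 0.23 above, while tested genes as a whole fall evenly on either side by construction. The exceptions were Zfp36l1, 0.03 below, and Zc3h12d, 0.55 below. The members were chosen with results of these data known, so this is a description.

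The call of 1 member depends on the scale. With log2 values centred on genes of baseMean at least 1000, which adds 0.25 to every gene, Zfp36 stood at 0.50 ± 0.14 with an adjusted p of 0.0358 (recomputed from the deposited error), and 1.17% of tested genes passed as higher and 0.0104% as lower on that scale. No other member passed there, Btg2 (adjusted p = 0.107) and Btg1 (0.166) being next. With the running median subtracted in place of the constant, Zfp36 was at 0.50 with an adjusted p of 0.156, and 0.099% of tested genes passed as higher and 0.0104% as lower. Zfp36l2 and Rc3h2 turned positive on both scales, and Zc3h12d on the centred one.

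**Figure D3:**
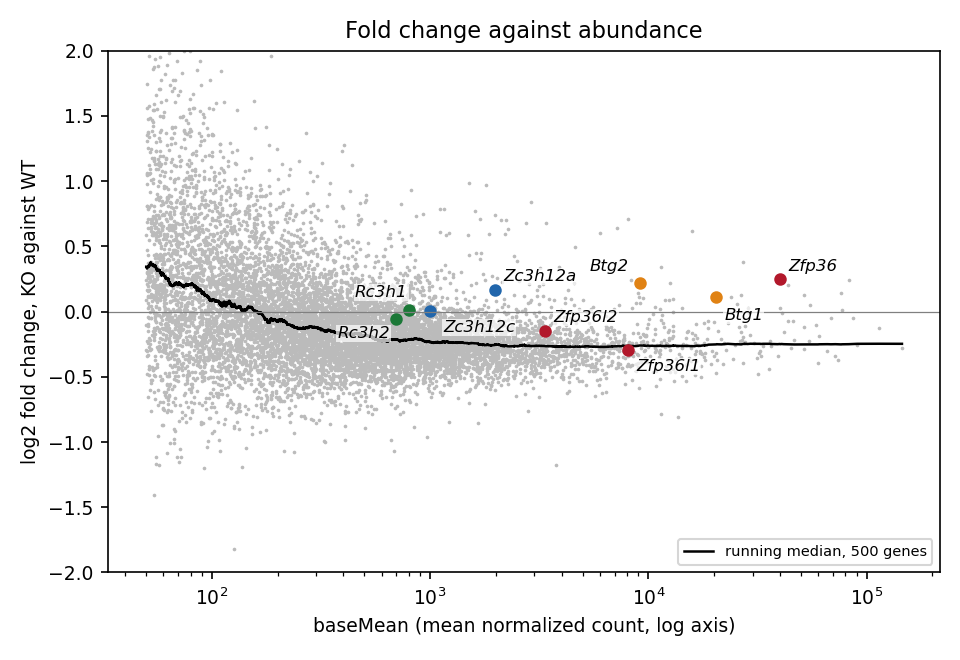
Log2 fold change of KO against WT over baseMean (log axis) for 10869 genes at or above a baseMean of 50 (grey, 83 of them outside the plotted range), with the running median of 500 genes as a black line and 9 members in colour; Zc3h12d, at 48.8, is not drawn. The line falls to about -0.25 among abundant genes, where Zfp36, Btg1 and Btg2 lie above 0 and Zfp36l1 lies 0.03 below the line.

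The proteins that carry out decay were followed as fixed lists. Of 16 deadenylation genes none passed, 12 had negative values and the median was -0.14 in the authors' deposited table. Pan2, a poly(A) nuclease, had the smallest p there at -0.46 ± 0.26 (adjusted p = 0.426), then Cnot1, the scaffold of CCR4-NOT, at -0.27 ± 0.18 (0.519) and Cnot2 at -0.30 ± 0.20 (0.525). The most abundant, the poly(A) binding protein gene Pabpc1, stood at -0.06 ± 0.17 in the authors' deposited table. Against genes of like abundance the list had a median 0.04 above the running median, with 10 of 16 above it. Single genes lay farther off, such as Pan2 at -0.24 relative to it.

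All 15 decapping and 5′ decay genes had negative values (median -0.17) and none passed in the authors' deposited table. The 5′ exonuclease Xrn1 was at -0.45 ± 0.24 (adjusted p = 0.382), the decapping enhancer Edc3 at -0.35 ± 0.23 (0.530) and Lsm7 at -0.40 ± 0.39 (0.695), while the abundant helicase gene Ddx6 was at -0.14 ± 0.18, all in the authors' deposited table. Against the running median 7 of 15 lay above it, with a median difference of -0.0016.

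Of 15 exosome and 3′ decay genes found, 13 were negative (median -0.23), 6 lay above the running median and none passed. Skiv2l, the helicase that feeds RNA to the cytoplasmic exosome, was at -0.57 ± 0.20 in the authors' deposited table with an unadjusted p of 0.0040 and an adjusted p of 0.139. Dis3l2 (-0.29 ± 0.24) and Exosc5 (-0.30 ± 0.28) followed in the authors' deposited table. None of 10 nonsense-mediated decay genes passed, 8 were negative and 6 lay above the running median, with Upf3a at -0.55 ± 0.27 (adjusted p = 0.326) and Smg1 at -0.22 ± 0.17 (0.611) in the authors' deposited table.

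Other proteins that bind AU-rich elements or 3′ UTRs gave 0 calls in 13, with 9 negative and 9 above the running median. The authors' deposited table had Celf1 at -0.44 ± 0.17 (adjusted p = 0.205), the zinc finger gene Zc3h7a at -0.33 ± 0.16 (0.350) and Arid5a, which protects Il6 mRNA from Regnase-1, at -0.27 ± 0.16 (0.462). Elavl1, the gene of the stabilising protein HuR, has 8 nonamers in its own 3′ UTR, the most of any gene in the lists searched.

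The lists of machinery and the regulators are set side by side in the plot by group. No test compares the lists.

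**Figure D4:**
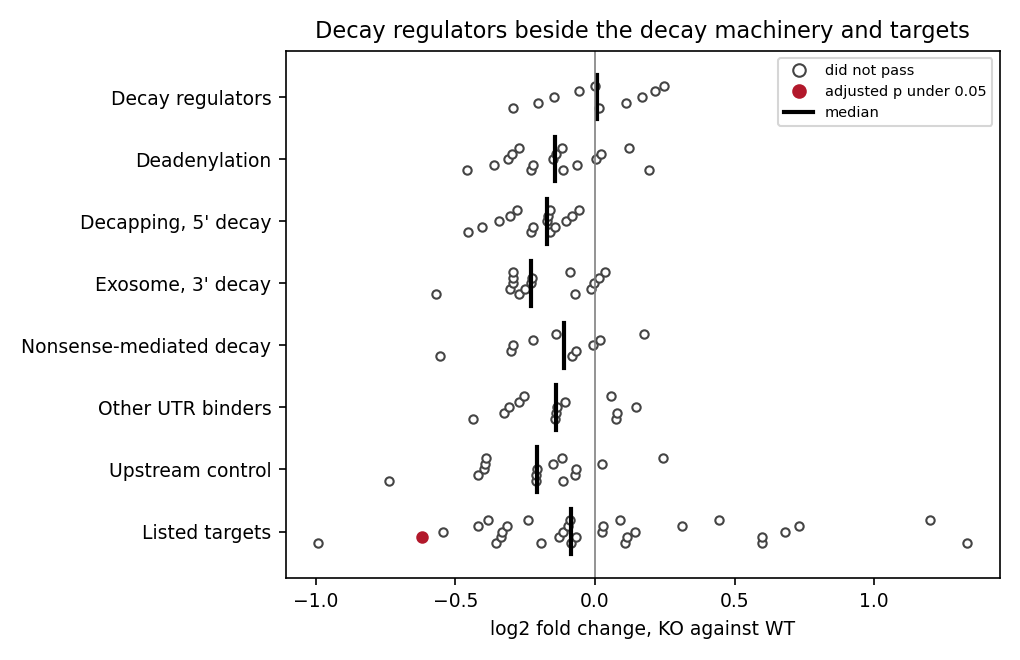
Log2 fold change of KO against WT for the 10 decay regulators and the genes of 7 fixed lists with an adjusted p; each circle is a gene, the black bar is the list median and the filled circle is the 1 gene past the test, Csf2. The median is 0.01 for the regulators, -0.14 for deadenylation, -0.17 for decapping, -0.23 for the exosome and -0.09 for listed targets.

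Upstream signals set how active these proteins are. The p38 and MK2 kinases inactivate Zfp36 by phosphorylation, 14-3-3 proteins hold the phosphorylated form, and the protease Malt1 cleaves Regnase-1 and Roquins after receptor signals. None of 15 such genes passed in the authors' deposited table, and 13 were negative (median -0.21), while 10 of 15 lay above the running median, with a median difference of 0.05. Mapk11, p38 beta, had the smallest p at -0.74 ± 0.26 (adjusted p = 0.144), followed by the 14-3-3 beta gene Ywhab at -0.39 ± 0.16 (0.205) and the MK2 relative Mapkapk3 at -0.42 ± 0.17 (0.222) in the authors' deposited table. The p38 alpha gene Mapk14 and the MK2 gene Mapkapk2 were at -0.15 ± 0.23 (adjusted p = 0.820) and -0.21 ± 0.24 (0.753) there. Dusp1, a phosphatase that switches p38 off, was the most abundant at a baseMean of 82796 and one of the 2 positive genes, at 0.24 ± 0.13 in the authors' deposited table (adjusted p = 0.416). On the scale centred on abundant genes Dusp1, alone in this list, passed as higher.

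Cytokine and immune transcripts known or proposed as targets of these proteins formed a list of 31. Of them Csf2, the gene of GM-CSF, was alone in passing in the authors' deposited table, with a log2 fold change of -0.62 ± 0.16 (adjusted p = 0.0335) at a baseMean of 6370. Over all tested genes 0.099% passed as lower in KO, and 14 of the 2480 genes at or above a baseMean of 1000 did. The call of Csf2 ended when values were centred on abundant genes or taken against the running median, and when all genes of the table entered the adjustment. Csf2 shares 12.0% of its exonic bases with the antisense model Gm12223, listed at a baseMean of 27.2. The list had 14 positive and 17 negative genes, with a median of -0.09, and 19 lay above the running median.

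Next by p in the authors' deposited table were the IL-33 receptor gene Il1rl1 at -0.42 ± 0.14 (adjusted p = 0.118) and Gata3, the ILC2 lineage factor, at -0.34 ± 0.14 (0.211). The most abundant target was Fos, an immediate-early gene and itself a known Zfp36 target, at a baseMean of 76513 and 0.14 ± 0.14 in the authors' deposited table (adjusted p = 0.701). Tnf, with 5 nonamers, was listed at 0.31 ± 0.20 in the authors' deposited table (adjusted p = 0.513), opposite in sign to Csf2, which has 4. Tnf was singled out after its value was seen because its sites are shown above.

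The nonamer occurs in 12 of the 31 targets (38.7%). These 12 had a median log2 of -0.03, with 6 positive and 6 negative, and the 19 without it had a median of -0.09. Among all genes at or above a baseMean of 1000 the median was -0.24 for the 201 with the nonamer and -0.25 for the 2221 without. Genes with the element thus had medians within 0.06 of those without in both sets, and no test was made of either difference.

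**Figure D5:**
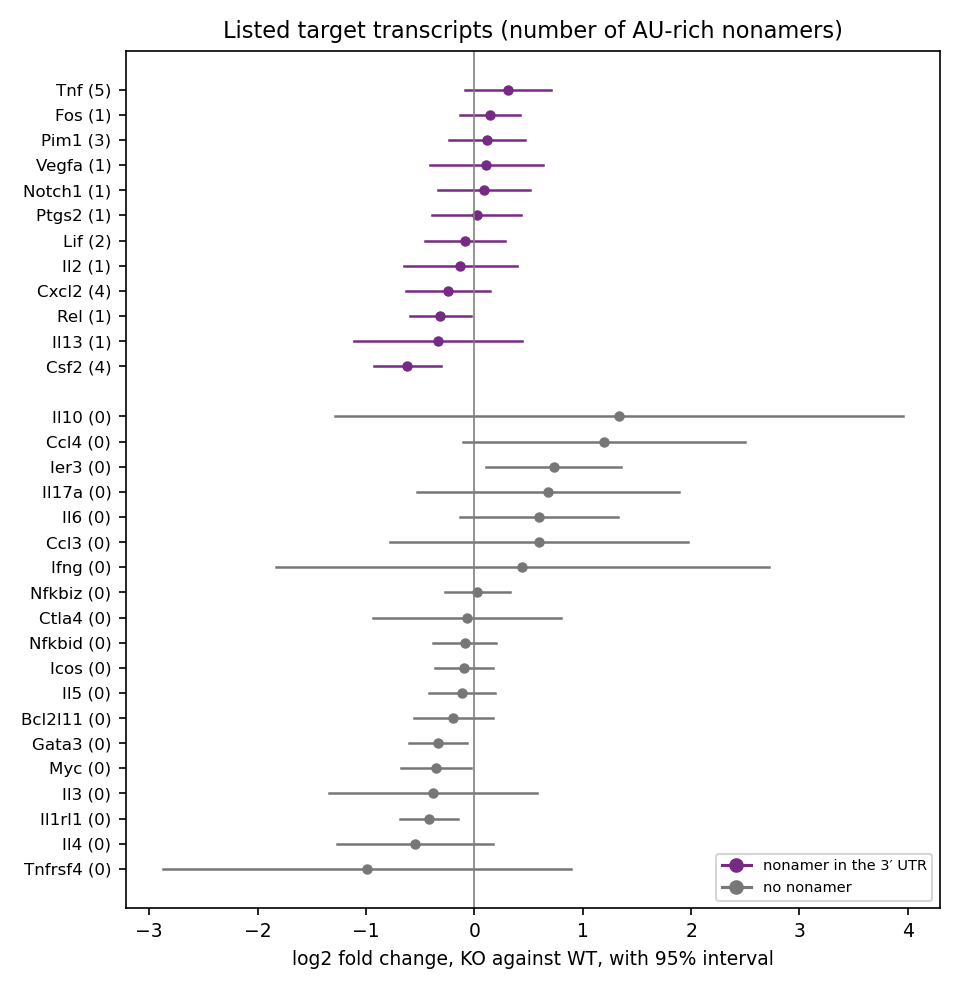
Log2 fold change of KO against WT with its 95% interval, from the authors' deposited values, for the 31 listed target transcripts, with the number of AU-rich nonamers in each longest 3′ UTR in brackets; the upper group of 12 holds the nonamer and the lower group of 19 does not. Tnf (5 nonamers) and Csf2 (4) lie at opposite ends of the upper group, at 0.31 and -0.62.

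The value given above for Nrp1, the targeted gene, is at gene level and does not isolate the floxed exon. All 12 ILC2 markers were found, with baseMean from 187 for Il13 to 41644 for Rora. All 12 had negative values (median -0.33) and none passed, with 6 at an unadjusted p under 0.05 and 4 of 12 above the running median. Negative values were common among abundant genes. Of the 2480 whose baseMean was 1000 or more, 2304 were negative and 536 were lower at an unadjusted p under 0.05. Of the ILC2 markers, Il13 and Thy1 (baseMean 984) lay below that abundance. The implied sums of the 12 ILC2 markers were 192033 in WT and 159816 in KO. Defining markers of other cells were present at levels from low to high: the baseMean was 13.8 for Cd4 and 4.88 for Itgam, against 8981 for Lyz2 and 6032 for Sftpc. The implied sums were 8398 in WT and 14212 in KO for 7 lung epithelial genes, 3868 and 6721 for 6 fibroblast genes, 2883 and 3549 for 6 endothelial genes, and 9583 and 10741 for 8 macrophage genes. Their medians were 0.73, 0.74, 0.37 and 0.34, with 7 of 7, 6 of 6, 5 of 6 and 7 of 7 tested genes positive. None of these genes passed, and at an unadjusted p under 0.05 the counts higher in KO were 2, 0, 0 and 1. All implied sums here carry no error, and some of the most abundant genes had large ones. Sftpc stood at 0.60 ± 1.44, the fibroblast gene Col3a1 at 0.70 ± 1.22 and Lyz2 at 0.14 ± 0.20 in the authors' deposited table. For 10 T cell genes the sums were 7921 and 5710, for 8 B and plasma cell genes 5273 and 5612, and for 5 neutrophil genes 110 and 93.4. The medians of these 3 lists were -0.34, 1.03 and -0.15, with 2 of 9, 6 of 8 and 1 of 4 tested genes positive. Ighm, the most abundant B and plasma cell gene, was at -0.51 ± 0.18 in the authors' deposited table. The one marker past the test, Cd3g, was lower in KO at -0.96 ± 0.24 in the authors' deposited table (adjusted p = 0.0292). The part of ILC2s and of these other cells in the values of the regulators, several of which are also made by lung stroma and macrophages, was not tested. In such pools, fewer cells of a type and less RNA per cell cannot be told apart.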

How the data were processed

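RNA of lung ILC2s was measured in 4 libraries (2 of either genotype, every one pooled from 3 to 4 mice) with full-length cDNA from the SMART-Seq HT kit, per the labels' protocols. The submitters' processing notes name HISAT2, Cufflinks and mm10 but no role for any. How reads were counted and filtered, and on which annotation, is not given in the sources used here. Per the file headers, the column names match DESeq2 output. The authors deposited, per gene, a mean normalized count (baseMean, a signal averaged over libraries), the log2 fold change and its standard error, both on the log2 scale, the ratio of these as a score, and a two-sided p-value with its adjusted p-value. The table also holds 8 columns of values per library whose codes match no sample label. None was given to a sample or used, so depth, replicate spread and refits were not analysed here. No count model was run, and the authors' test, adjusted by Benjamini-Hochberg over all 19193 genes, is the main result, as planned.

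The deposited table names WT before KO, so WT was read as its numerator and the sign was turned, positive meaning higher in KO. Intervals are the log2 value ± 1.96 standard errors. Implied genotype means split baseMean by the fold change with both genotypes weighted equally. Lengths and 3′ UTRs came from GENCODE M21, in which 19123 of 19193 tested genes had a length. Motifs were searched in the longest UTR of protein-coding transcripts with a complete end. Cnot9 was matched by gene identifier, and Exosc6 is not analysed here. Protein sequences were not used here. Python 3.11.15 with pandas 2.3.3 and scipy 1.17.1 was used. Tested on simulated data for 19193 genes, recomputed p-values against the running median recovered 188 of 200 genes raised by 5 standard errors. The raised genes all had a baseMean of at least 1000, and 10 unchanged genes were called. The simulated noise was drawn from the deposited errors, so this checks the calculation and not those errors.

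The members, the lists and the tests were chosen with earlier results of these data known. Named genes are all members, Nrp1, the paralogs outside the group, and in each list the 3 with the smallest p, the most abundant and any past the threshold. Tnf, Elavl1, Mapk14, Mapkapk2 and markers named for their low level were chosen after their values were seen. Alternatives were other filters, thresholds, centring and the running median. Groups came from the sample titles. Single values of some listed genes are not reported here.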

Additional observations from a re-analysis of the deposited data

How the results depend on the processing

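No paired analysis was possible because no column of values per library was matched to a sample, so fits with a replicate block, edgeR and DESeq2 fits and leaving out a replicate were not run. Filters and thresholds leave a deposited log2 value as it is, so the direction of a member could turn only under centring and the running median, where 5 values turned. Zfp36 gained a call when centred (log2 0.50, adjusted p 0.0358; 0.156 to 0.651 in the other settings with adjusted p under 0.05). When centred, Zfp36l2 (0.11), Zc3h12d (0.047) and Rc3h2 (0.19) turned positive, and against the running median Zfp36l2 (0.12) and Rc3h2 (0.16) did. Centring adds 0.25 to every gene. Zc3h12d has no value at a baseMean of at least 50. Over all genes the calls, higher and then lower, were 87 and 19 in the main comparison, 22 and 13 at or above a baseMean of 50, 21 and 2 without a filter, 39 and 17 among protein-coding genes, 225 and 2 when centred, 19 and 2 against the running median, 266 and 40 at an adjusted p under 0.1, and 1846 and 759 at an unadjusted p under 0.05. The filters change which genes can be called as well as how many are adjusted for, and the cause of the changed counts was not tested. Members called as higher were 1 when centred and 0 in every other setting run. Target genes called as lower were 1 as deposited, and 0 without a filter, when centred and against the running median. Upstream genes called as higher were 1 when centred. At an unadjusted p under 0.05, 1 of 15 exosome and 1 of 10 nonsense-mediated decay genes were lower. So were 2 of 13 UTR-binding and 4 of 15 upstream genes, and of 31 targets 1 was higher and 5 lower. At that threshold 9.62% of all tested genes were higher and 3.95% lower. Of the 2480 genes at or above a baseMean of 1000, 13 were higher and 536 lower. The nonamer was found in 5 members also with all annotated UTRs joined, and 9 members exceeded the median pentamer density. The error of each gene, and for Zc3h12d its low level, limits what could be detected.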
